A study of Mus musculus with 3 samples.

Results

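miR-146a, miR-146b, miR-155 and miR-132 are the microRNAs (miRNAs) best known as feedback regulators of Toll-like receptor and NF-kB signaling, and their levels were followed here through the first days of muscle injury in the mouse. They were taken by name from the tables of read counts: mmu-miR-146a-5p, mmu-miR-146b-5p, mmu-miR-155-5p and mmu-miR-132-3p, 4 of the 1138 mature miRNAs listed. All 4 were detected in each library. The tissue was the tibialis anterior (TA) muscle of wild-type C57BL/6 mice aged 10 weeks, taken on day 0, day 1 and day 3 after injury with cardiotoxin (CTX), a snake venom protein that lyses myofibers. The labels mention CTX or a saline control, and the study treats day 0 as uninjured muscle. A pool of 4 samples went into a single small RNA library (18 to 30 nt) at each time point, so that each day was represented by 1 library and differences between days have no replicate check.

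Toll-like receptors and the interleukin-1 receptor signal through the kinase IRAK1 and the adaptor TRAF6 to NF-kB, the transcription factor that switches on inflammatory genes in macrophages and other cells. NF-kB also induces the miR-146a and miR-155 genes. miR-146a and miR-146b repress IRAK1 and TRAF6 and so dampen the signal, miR-132 represses the kinase IRAK4 and the coactivator p300, and miR-155 represses brakes on cytokine signaling such as SOCS1 and SHIP1 and so tends to strengthen the response. In damaged muscle these miRNAs can come from infiltrating leukocytes, from resident cells or from the myofibers themselves.

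The mature sequences below are shown because the seed (bases 2 to 8 from the 5′ end, in capitals) sets which transcripts a miRNA can pair with, and because the 2 members of the miR-146 family are told apart by only a few bases outside it. Sequences and positions are those of RefSeq on GRCm38.p6, and miR-212-3p, which shares the seed of miR-132-3p, is added for comparison.
mmu-miR-146a-5p: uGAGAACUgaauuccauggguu
mmu-miR-146b-5p: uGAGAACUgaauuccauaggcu
mmu-miR-155-5p: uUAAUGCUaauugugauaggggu
mmu-miR-132-3p: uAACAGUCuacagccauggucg
mmu-miR-212-3p: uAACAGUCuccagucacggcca
miR-146a-5p and miR-146b-5p were the only mouse miRNAs in that collection with the seed GAGAACU. They carried the same base at 20 of 22 positions and differed by G18A and U21C (the miR-146a-5p base first, positions counted from the 5′ end). How reads that match both, such as reads shortened at the 3′ end, were shared between them is not given in the sources used here. The seed UAAUGCU belonged to miR-155-5p alone, and AACAGUC to miR-132-3p and miR-212-3p, which matched at 17 of 22 positions and differed by A10C, C14U, U17C, U20C and G22A.

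The 4 miRNAs came from 4 loci of different kinds. The mature miR-146a-5p lay on the minus strand at chr11:43374435-43374456, within a 65 nt hairpin that overlapped no other gene of the GENCODE M21 annotation. miR-146b-5p lay at chr19:46342790-46342811 on the plus strand, in an intron of the protein-coding gene Mfsd13a. miR-155-5p lay at chr16:84714143-84714165 on the plus strand, in an exon of the long non-coding RNA Mir155hg. miR-132-3p lay at chr11:75173723-75173744 on the plus strand, in an intron of the processed transcript 1700016P03Rik, where the Mir132 hairpin started 203 bases after the end of the Mir212 hairpin. The hairpins of Mir155 and Mir132 are given below with both mature arms in capitals, since reads came almost wholly from 1 arm of the former and from both arms of the latter.
Mir155 hairpin: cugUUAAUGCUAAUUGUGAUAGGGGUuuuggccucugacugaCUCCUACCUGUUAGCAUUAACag
Mir132 hairpin: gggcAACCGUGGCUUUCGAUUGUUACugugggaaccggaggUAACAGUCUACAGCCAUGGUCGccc

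The libraries of days 0, 1 and 3 held 8507580, 6421056 and 9795076 reads. Levels are given as CPM, the reads of a miRNA per 1000000 reads of its library, with 95% Wilson intervals that cover counting error only, because PCR copies are not independent molecules. The share taken by the 10 most abundant miRNAs was 78.4%, 61.6% and 64.1%, and most of the remaining miRNAs were higher in CPM after injury than before. For the 393 miRNAs with 10 or more reads on both day 0 and day 1, the log2 fold change had a median of 0.90, and for the 407 shared by day 0 and day 3 it was 0.93. A miRNA was called up- or downregulated when its CPM differed at least 2-fold at an adjusted p of at most 0.001 (2-sided Fisher's exact test on reads, Benjamini-Hochberg adjustment over all miRNAs with a read in either library). That test compares the libraries, not the conditions. Markers of the tissue shifted as well: 5 myofiber miRNAs made up 26.1%, 8.67% and 9.59% of reads, and fewer cells of a type cannot be told apart from less RNA per cell in such bulk samples.

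Together the 4 miRNAs summed to 564 CPM before injury, 2649 CPM after 1 day and 2971 CPM after 3 days, that is to 0.0564%, 0.265% and 0.297% of all miRNA reads. miR-146a-5p was the most abundant of them in each library and its part of their reads grew from 61.0% to 75.5% and then 84.9%. On day 1, 3 of the 4 were called upregulated against day 0 and none was called downregulated. Of all 998 miRNAs tested, 25.1% were called upregulated and 4.31% downregulated. On day 3, 2 of the 4 were called upregulated and none downregulated, against 26.1% and 4.36% of 1056 miRNAs. These shares include many miRNAs with too few reads to be called. Of those with 10 or more reads in both libraries, 177 of 393 were called upregulated on day 1 and 196 of 407 on day 3. The 2 of 4 on day 3 were close to that share. Between day 1 and day 3 none was called upregulated and 1 of the 4 downregulated, against 9.60% and 7.16% of 1104 miRNAs. The median log2 fold change of the 4 was 2.40 on day 1 against 1.41 over all miRNAs tested, 1.14 on day 3 against 1.73, and -0.46 from day 1 to day 3 against 0.05. The medians over all miRNAs tested include many with very few reads, and against the medians of 0.90 and 0.93 among those with 10 or more reads in both libraries the median of the 4 lay higher on both days, although miR-155-5p on both days and miR-132-3p on day 3 lay below them.

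**Figure D1:**
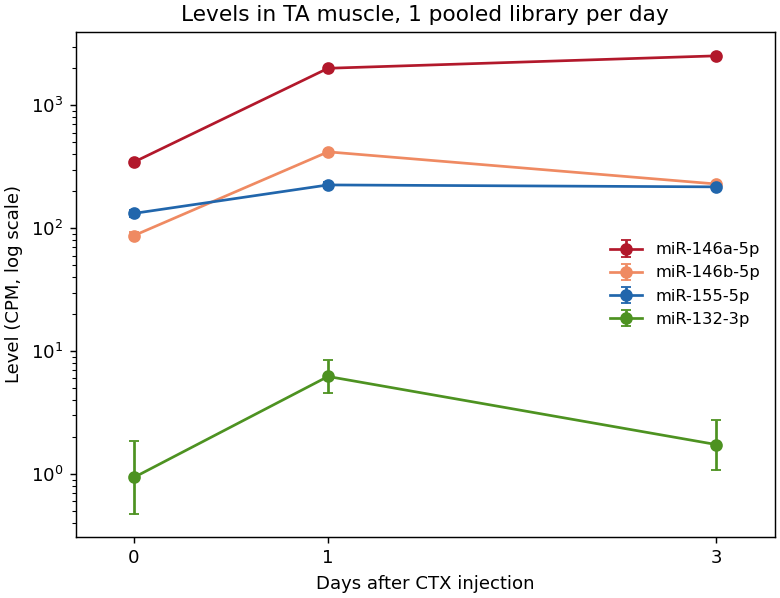
Level of each miRNA (CPM, log axis) in the day 0, day 1 and day 3 libraries, with 95% Wilson intervals for counting error. miR-146a-5p climbed from 345 to 2524 CPM by day 3, miR-146b-5p and miR-132-3p were highest on day 1, and miR-155-5p stayed between 132 and 225 CPM.

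miR-146a-5p, the brake on IRAK1 and TRAF6, rose the most of the 4 by day 3. It had 2931, 12839 and 24719 reads on days 0, 1 and 3. These reads correspond to 345 CPM (332 to 357), 1999.5 CPM (1965 to 2034) and 2524 CPM (2492 to 2555), and the intervals of the 3 days did not overlap. In abundance it moved from rank 82 to rank 49 and then rank 41 of the library. Its level on day 1 was 5.80-fold that of day 0 (95% interval 5.58 to 6.04), a log2 fold change of 2.54, and on day 3 it was 7.33-fold (7.05 to 7.61), a log2 fold change of 2.87. Both were called, with adjusted p-values of Fisher's exact test too small to be written as other than 0. From day 1 to day 3 it gained a further 1.26-fold (1.24 to 1.29), below the 2-fold threshold. Under each of 3 other scalings of the libraries it stayed called on both days, with log2 fold changes of 1.50 to 1.61 on day 1 and 1.75 to 2.38 on day 3. With an assumed coefficient of variation of 0.4 between pooled libraries, not between single samples, it was no longer called on either day (adjusted p = 3.7e-02 and 1.3e-02, edgeR exact test).

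miR-146b-5p has the same seed and therefore the same predicted partners, but its time course differed. It had 741, 2685 and 2246 reads on days 0, 1 and 3, or 87.1 CPM (81.0 to 93.6), 418 CPM (403 to 434) and 229 CPM (220.0 to 239). It was thus highest on day 1, with day 3 between the other two days and no overlap of the intervals. The rise was 4.80-fold on day 1 (4.42 to 5.21, log2 2.26) and 2.63-fold on day 3 (2.42 to 2.86, log2 1.40), and both were called. From day 1 to day 3 its level was 1.82-fold lower (1.72 to 1.93), which did not reach the threshold, and the log2 value of -0.87 was -0.25 in expression values. The expression values were not scaled to their totals, which moved this step by a median of 0.61 over the miRNAs. The day 3 call was lost under all 3 other scalings, where the log2 fold change was 0.47, 0.28 and 0.91, whereas the day 1 call was retained at 1.22 to 1.33. The day 3 call was also lost at a fold of 4 and at a coefficient of variation of 0.2, and the day 1 call at 0.4 (adjusted p = 3.8e-03 and 7.2e-02 for the coefficients, edgeR exact test).

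The balance within the miR-146 family does not depend on how the libraries are scaled. For each read of miR-146b-5p there were 3.96, 4.78 and 11.0 reads of miR-146a-5p on the 3 days in turn. miR-146b-5p accordingly gave 20.2% (18.9 to 21.5) of the family's reads before injury, 17.3% (16.7 to 17.9) a day later and 8.33% (8.01 to 8.67) on day 3. The ratio of miR-146a-5p to miR-146b-5p changed by 0.27 on the log2 scale from day 0 to day 1 (0.14 to 0.40, Wald interval on reads) and by 1.20 from day 1 to day 3 (1.12 to 1.29). Most of the shift to miR-146a-5p therefore fell between day 1 and day 3. With the expression values deposited beside the reads, the ratio was 3.94, 4.53 and 9.75. The 2 miRNAs summed to 432, 2418 and 2753 CPM, so that the total number of reads with the seed GAGAACU was still highest on day 3.

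miR-155-5p, the member that promotes inflammatory signaling, did not reach the 2-fold threshold on either day. It had 1121, 1445 and 2122 reads on days 0, 1 and 3, which correspond to 132 CPM (124 to 139.7), 225 CPM (214 to 237) and 217 CPM (208 to 226). The day 1 and day 3 intervals overlapped each other and both lay above day 0. The level was 1.71-fold that of day 0 on day 1 (1.58 to 1.85) and 1.64-fold on day 3 (1.53 to 1.77), under the 2-fold threshold in both cases, and the step from day 1 to day 3 was 0.963-fold (0.900 to 1.03, adjusted p = 0.51, Fisher's exact test). Its log2 fold changes of 0.77 and 0.72 lay below the medians of 0.90 and 0.93 given above, and their direction turned with the scaling. TMM factors gave -0.17 for day 1 and -0.21 for day 3, and median-of-ratios factors gave -0.27 and -0.40. The log2 step from day 1 to day 3 was -0.05 with reads and 0.55 in expression values, which were not scaled to their totals. Over the 476 miRNAs with 10 or more reads in both libraries, the median step likewise went from -0.05 to 0.54. That turn is therefore a shift of the whole column and not particular to miR-155-5p. Because of the TMM and median-of-ratios values, no direction is given here for miR-155-5p.

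Relative to miR-155-5p, both miR-146 species rose whichever scaling is used. For each read of miR-155-5p there were 2.61 reads of miR-146a-5p before injury, 8.89 a day later and 11.6 on day 3. The ratio rose 3.40-fold (3.11 to 3.71) by day 1 and 4.46-fold (4.11 to 4.84) by day 3. For miR-146b-5p the ratio to miR-155-5p went from 0.661 (0.602 to 0.725) to 1.86 (1.74 to 1.98) and then to 1.06 (0.997 to 1.12). miR-155-5p therefore exceeded miR-146b-5p on day 0, the order was turned on day 1, and on day 3 the 2 could not be distinguished within counting error.

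**Figure D2:**
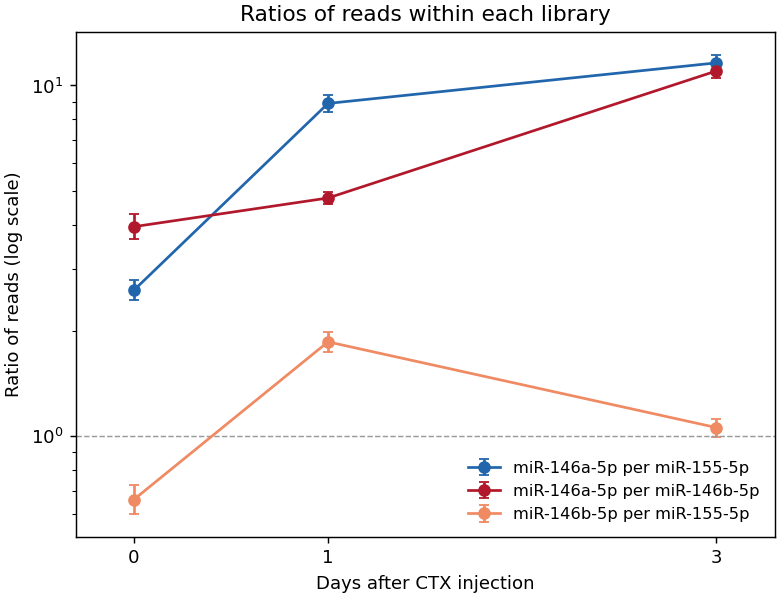
Ratios of reads between members within each library on days 0, 1 and 3 (log axis) with 95% intervals for counting error; such ratios do not depend on library scaling. miR-146a-5p per miR-146b-5p stood at 3.96, 4.78 and 11.0, and miR-146b-5p per miR-155-5p at 0.661, 1.86 and 1.06.

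miR-132-3p was the rarest member and its values carry the widest intervals. It had 8, 40 and 17 reads on days 0, 1 and 3, that is 0.940 CPM (0.476 to 1.86), 6.23 CPM (4.58 to 8.48) and 1.74 CPM (1.08 to 2.78). The day 1 interval lay above the others, while those of day 0 and day 3 overlapped. The level was 6.62-fold higher on day 1 than on day 0 (3.06 to 16.4, log2 2.73, adjusted p = 4.2e-08, Fisher's exact test) and 3.59-fold lower on day 3 than on day 1 (1.99 to 6.75, log2 -1.84, adjusted p = 1.7e-05, exact test), and both differences were called. Day 3 was 1.85-fold day 0 (0.755 to 4.94, adjusted p = 0.29, exact test), which was not called, and the log2 value of 0.88 turned to -0.04 with TMM factors and to -0.24 with median-of-ratios factors. The day 1 rise kept its direction but lost its call under the 3 other scalings (log2 1.78, 1.69 and 1.80, with exact binomial test adjusted p-values of 1.7e-03, 2.8e-03 and 1.7e-03). From day 1 to day 3 the call held under each of these scalings, at -1.74 to -1.92, but it was lost at a fold of 4 and at assumed coefficients of variation of 0.2 and 0.4 (adjusted p = 1.8e-02 and 5.1e-01, edgeR exact test). The day 1 rise was also lost at 0.4 (adjusted p = 7.9e-02, edgeR exact test). With a pseudocount of 1 CPM the day 1 rise was smaller but still called (log2 1.90). In the unscaled expression values the fall from day 1 to day 3 was likewise smaller but still called (log2 -1.23).

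The other products of the miR-132 and miR-212 hairpins were more abundant and were also highest on day 1. miR-132-5p, the opposite arm, had 16, 93 and 73 reads on days 0, 1 and 3 (1.88, 14.5 and 7.45 CPM). It was 7.70-fold higher on day 1 than on day 0 (4.50 to 14.0) and 3.96-fold higher on day 3, and both were called. miR-212-3p, with the miR-132-3p seed, had 75, 483 and 273 reads (8.82, 75.2 and 27.9 CPM), an 8.53-fold rise on day 1 and a 3.16-fold rise on day 3. miR-212-5p had 18, 171 and 60 reads (2.12, 26.6 and 6.13 CPM), a 12.6-fold rise on day 1 and a 2.90-fold rise on day 3. From day 1 to day 3 both miR-212 arms were called lower (log2 -1.43 for the 3p arm and -2.12 for the 5p arm), whereas miR-132-5p was not (-0.96). This contrast turned with the setting, as miR-132-5p was called lower with median-of-ratios factors (-1.04) and miR-212-3p was not called with unscaled expression values (-0.83). The day 1 rises of these 3 arms remained called under the other scalings, but all 3 day 3 rises lost the call with TMM and median-of-ratios factors, and that of miR-212-5p also without the 10 most abundant miRNAs (1.04).

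Within the cluster, proportions were compared without reference to library scaling. miR-132-3p made up 33.3% (18.0 to 53.3), 30.1% (22.9 to 38.3) and 18.9% (12.1 to 28.2) of the reads of its 2 arms on days 0, 1 and 3. The change in the ratio of miR-132-5p to miR-132-3p from day 1 to day 3 was 0.89 on the log2 scale with an interval of -0.05 to 1.82, so no change in the balance of the miR-132 arms was detectable at this depth. miR-212-3p made up 80.6%, 73.9% and 82.0% of the reads of the miR-212 arms. Its ratio to miR-212-5p rose by 0.69 on the log2 scale from day 1 to day 3 (0.21 to 1.16). For each read of miR-132-3p there were 9.38 (4.59 to 19.1), 12.1 (8.76 to 16.6) and 16.1 (9.89 to 26.1) reads of miR-212-3p, and these intervals overlapped. Reads with the shared seed AACAGUC summed to 9.76, 81.5 and 29.6 CPM, and miR-132-3p supplied 9.64%, 7.65% and 5.86% of them. By reads, miR-132-3p was hence the minor carrier of its seed on each day.

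The opposite arms of the other 3 hairpins were almost absent. miR-146a-3p, miR-146b-3p and miR-155-3p each had 0 reads on day 0 and on day 1 and 1 read on day 3. A count of 0 allows up to 3 reads, which is 0.353 CPM on day 0 and 0.467 CPM on day 1, and the single day 3 read is 0.102 CPM. On day 3 these arms stood against 24719, 2246 and 2122 reads of the 5p arms, while both arms of miR-132 and of miR-212 were counted in every library.

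**Figure D3:**
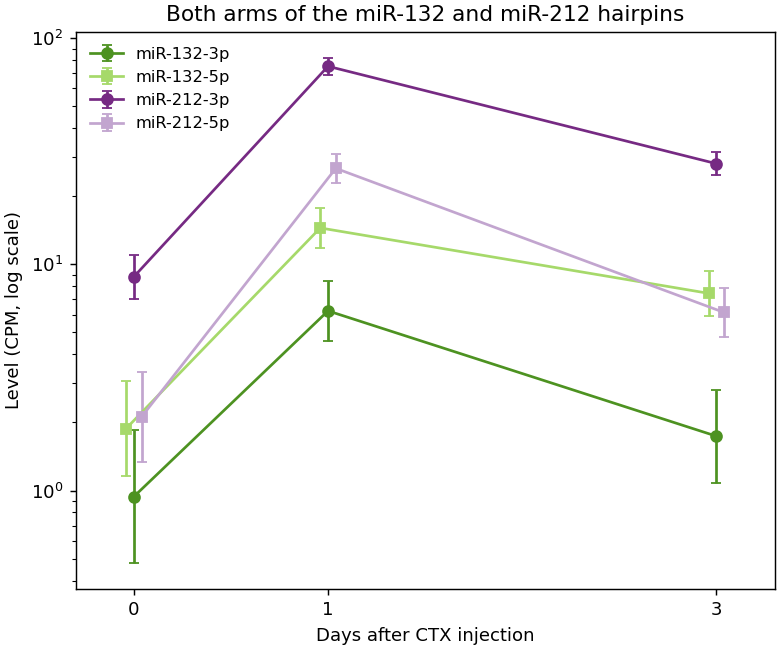
Level (CPM, log axis) of both arms of the miR-132 and miR-212 hairpins on days 0, 1 and 3, with 95% Wilson intervals for counting error. All 4 arms were highest on day 1, where miR-212-3p reached 75.2 CPM and miR-132-3p 6.23 CPM.

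The choice of scaling decided some of the members' calls. TMM factors moved the log2 fold changes by -0.94 for day 1 and by -0.93 for day 3. Median-of-ratios factors moved them by -1.04 and -1.12, and library totals without the 10 most abundant miRNAs by -0.93 and -0.49. With TMM factors 54.7% of the calls on day 1 were increases, against 85.3% with total reads, and on day 3 these shares were 60.2% and 85.7%. With median-of-ratios factors they were 49.4% and 54.4%. After these shifts 2 of the 4 members were called upregulated on day 1 (miR-146a-5p and miR-146b-5p) and 1 on day 3 (miR-146a-5p). Over all miRNAs the 3 scalings called 129, 118 and 130 of 998 upregulated on day 1, and 165, 148 and 217 of 1056 on day 3. Expression values, not scaled to their totals, moved the log2 fold changes by -0.41 and 0.20, and by 0.61 from day 1 to day 3.

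**Figure D4:**
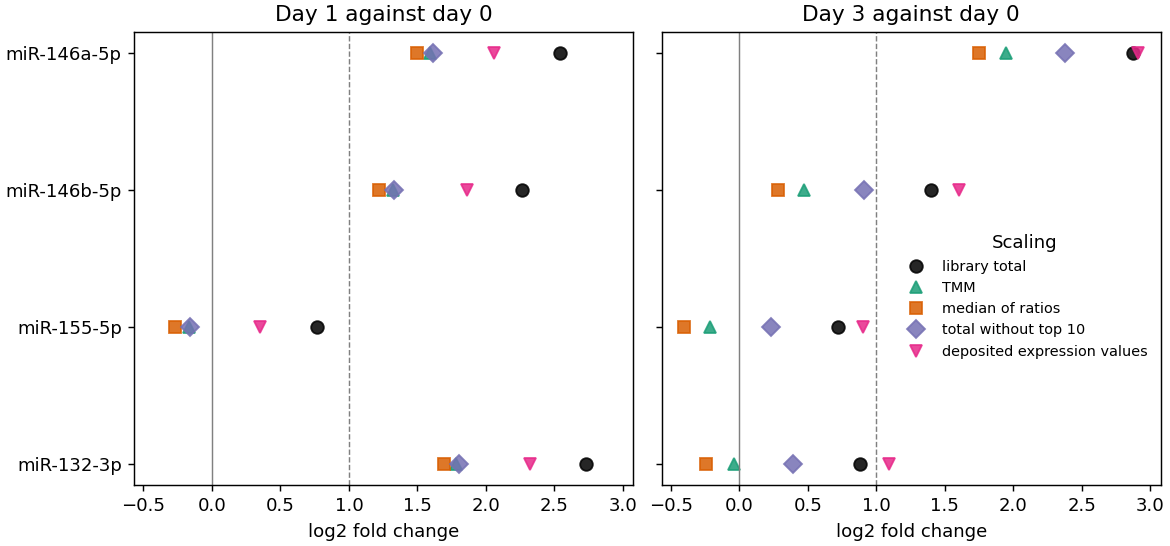
Log2 fold change of each member on day 1 and day 3 against day 0 under total reads, TMM, median-of-ratios, totals without the 10 most abundant miRNAs and the deposited expression values; the solid line marks 0 and the dashed line the 2-fold threshold. miR-146a-5p stays at 1.50 or more throughout, whereas miR-155-5p lies on both sides of 0 on each day and miR-132-3p does so on day 3.

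Of the other miRNAs linked to Toll-like receptor and NF-kB signaling, most rose with total scaling, whereas fewer passed the test with TMM or median-of-ratios factors. Of a list of 13, 10 were called upregulated on day 1 and 11 on day 3, beside 25.1% and 26.1% of all miRNAs tested, with none downregulated, and their median log2 fold changes were 1.87 and 1.96, against 1.41 and 1.73 for all miRNAs tested. Among miRNAs with 10 or more reads in both libraries, 177 of 393 and 196 of 407 were called upregulated, with medians of 0.90 and 0.93. With TMM factors 6 of the 13 were called upregulated on each day, beside 129 of 998 and 165 of 1056 miRNAs in all, and with median-of-ratios factors 6 on day 1 and 5 on day 3, beside 118 and 148 in all. Among those with reads on day 0, the largest rise on day 1 was that of the myeloid miR-223-3p, which restrains the NLRP3 inflammasome (832, 50183 and 18568 reads, log2 fold changes 6.32 and 4.28). The seed-sharing pair miR-222-3p and miR-221-3p had log2 fold changes of 3.67 and 4.28 and of 3.45 and 3.46. miR-21a-5p, which represses PDCD4, had 32885, 122768 and 514881 reads (2.31 and 3.77) and stood at 52565 CPM on day 3, against 2524 CPM for miR-146a-5p.
miR-511-3p, a macrophage miRNA from an intron of Mrc1, had 73, 201 and 1151 reads (1.87 and 3.78), and miR-125a-5p, which targets the ubiquitin-editing NF-kB inhibitor TNFAIP3, had log2 fold changes of 1.33 and 1.82. miR-187-3p, which is induced by interleukin-10, gave 1.49 and 1.22. miR-147-3p, induced by Toll-like receptors in macrophages, had 0, 31 and 19 reads, and against the floor of 3 reads in the day 0 library its log2 rise was at least 3.78 on day 1 and at least 2.46 on day 3, and the exact intervals, which include the counting error of these reads, began at 3.39 and 2.02. The LPS-regulated miR-125b-5p was called on day 1 only (1.02, then 0.59), and let-7e-5p, which targets TLR4, on day 3 only (0.97, then 1.96), as was miR-181b-5p, which represses importin-α3 (0.55, then 1.19). miR-9-5p, which represses NFKB1, was called on neither day (0.95 and 0.44, from 39, 57 and 61 reads).

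From day 1 to day 3, miR-21a-5p and miR-511-3p of this list were called higher (log2 1.46 and 1.91) and miR-223-3p and miR-212-3p lower (-2.04 and -1.43), beside 9.60% and 7.16% of all miRNAs. With expression values 5 were called higher and 1 lower, beside 140 and 47 of 1104 miRNAs in all. TMM factors gave 3 higher and 2 lower, beside 111 and 78 in all. Totals without the 10 most abundant miRNAs also gave 3 and 2, beside 115 and 70 in all. miR-146a-5p (0.34), miR-146b-5p (-0.87) and miR-155-5p (-0.05) lay between these extremes, and miR-132-3p (-1.84) lay near the lower one.

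Leukocyte miRNAs were measured in the same libraries. Of 5 such miRNAs, 4 were called upregulated on both days against day 0 (25.1% and 26.1% of all miRNAs) and 3 were called lower on day 3 than on day 1 (7.16% of all). The latter count was 2 without the 10 most abundant miRNAs, beside 70 of 1104 miRNAs in all. In expression values it was 1, with 1 called higher, beside 47 lower and 140 higher in all. On day 3 the other 3 scalings each called 1 lower than on day 0. Over all 1056 miRNAs, TMM, median-of-ratios and totals without the 10 most abundant called 109, 124 and 79 lower. In total scaling the summed level of the 5 leukocyte miRNAs was 5017, 19274 and 7263 CPM on days 0, 1 and 3. The lymphocyte miRNA miR-150-5p (4733, 8307 and 3197 CPM) was the largest part in each library and nearly the whole sum on day 0. miR-142a-3p, expressed throughout the hematopoietic lineage, had 214, 10812 and 7995 reads, with log2 fold changes of 6.06 on day 1 and 5.02 on day 3. For each of its reads there were 13.7, 1.19 and 3.09 reads of miR-146a-5p. For miR-146b-5p these ratios were 3.46, 0.248 and 0.281, and for miR-155-5p they were 5.24, 0.134 and 0.265. Per read of miR-223-3p there were 3.52, 0.256 and 1.33 reads of miR-146a-5p and 0.891, 0.0535 and 0.121 of miR-146b-5p. For miR-155-5p there were 1.35, 0.0288 and 0.114. Each of the 3 was thus lower relative to miR-142a-3p and to miR-223-3p after injury than before it. Against the summed list, which on day 0 was mainly miR-150-5p, the direction differed for both miR-146 species and, on day 3, for miR-155-5p. Per read of the 5 leukocyte miRNAs together, miR-146a-5p was 1.51-fold higher on day 1 and 5.06-fold higher on day 3, and miR-146b-5p 1.25-fold and 1.82-fold higher. For miR-155-5p the ratio to the summed list was 0.445-fold that of day 0 on day 1 and 1.14-fold on day 3. Relative to miR-142a-3p, miR-146a-5p increased 2.60-fold (2.51 to 2.70) and miR-155-5p 1.99-fold (1.85 to 2.14) from day 1 to day 3, and miR-146b-5p 1.13-fold (1.06 to 1.20). No leukocyte marker was at 0 in any library, and the part of leukocyte content in the levels of the 4 miRNAs was not tested.

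Ratios of the members to the 5 myofiber miRNAs were also higher after injury. Per read of the summed myofiber list, miR-146a-5p was 17.5-fold higher on day 1 and 19.9-fold on day 3, miR-146b-5p 14.4-fold and 7.16-fold, miR-155-5p 5.14-fold and 4.47-fold, and miR-132-3p 19.9-fold and 5.02-fold. These sizes depended on the column used, since the expression values of abundant miRNAs are a small part of their reads (8.09%, 28.2% and 17.6% for miR-1a-3p): in expression values miR-146a-5p stood to the list as 0.0108, 0.0620 and 0.104 on days 0, 1 and 3, against 0.00132, 0.0231 and 0.0263 with reads. For miR-155-5p it was 0.00421, 0.00741 and 0.0101, and for miR-146b-5p 0.00275, 0.0137 and 0.0107. In expression values miR-132-3p stood at 3.0e-05, 2.1e-04 and 8.2e-05, from 8 reads on day 0. Its 19.9-fold change on day 1 with reads had an interval of 9.33 to 42.6. Of that list 3 of 5 were called lower on day 1 and 4 of 5 on day 3 (4.31% and 4.36% of all miRNAs), and none of its markers was at 0. With expression values 2 of 5 were called lower on each day, beside 55 of 998 and 35 of 1056 miRNAs in all. With TMM factors it was 4 on each day, beside 107 and 109 in all. Markers of other cells moved too, with summed levels on days 0, 1 and 3 of 59427, 132923 and 58732 CPM for 2 endothelial miRNAs, 2019.8, 3692 and 6244 CPM for 3 stromal ones, and 7142, 25326 and 12559.8 CPM for 2 erythroid ones. Regenerating muscle was represented by 3 miRNAs at 13629.7, 5047 and 182411 CPM, neural tissue by 3 at 654, 506 and 451 CPM, and epithelium by 4 at 6.93, 177 and 88.3 CPM. Their part in the members' levels was not tested.

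The miRNAs whose pair of log2 fold changes (day 1 and day 3, each against day 0) lay nearest to each member were found among 322 miRNAs with enough reads, as a description over 3 libraries. miR-146a-5p had miR-466p-5p (distance 0.09), miR-342-5p (0.19) and miR-125a-3p (0.31) nearest. For miR-146b-5p these were miR-23a-3p (0.05), miR-122-5p (0.10) and miR-425-3p (0.29). For miR-155-5p they were miR-542-5p (0.11), miR-218-5p (0.26) and miR-203-3p (0.26), and for miR-132-3p they were miR-140-3p (0.27), miR-148a-3p (0.59) and miR-122-5p (0.63). No member had another member among its 3 nearest, but miR-132-3p had too few reads to be a candidate. With a stricter read minimum, which left 159 miRNAs, miR-146a-5p shared none of its 3 with this list and its nearest were miR-320-3p (0.47), miR-214-3p (0.50) and miR-574-5p (0.52). miR-146b-5p kept 1 of its 3, and miR-155-5p and miR-132-3p each kept 2. The minimum applied to candidates only, and miR-132-3p itself had 8 reads on day 0. Its log2 intervals (1.61 to 4.03 on day 1, -0.41 to 2.30 on day 3) were wider than its distances. Likewise miR-466p-5p had 18 reads on day 0 and a day 1 interval of 1.77 to 3.35. Such neighbours are not resolved within counting error.

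**Figure D5:**
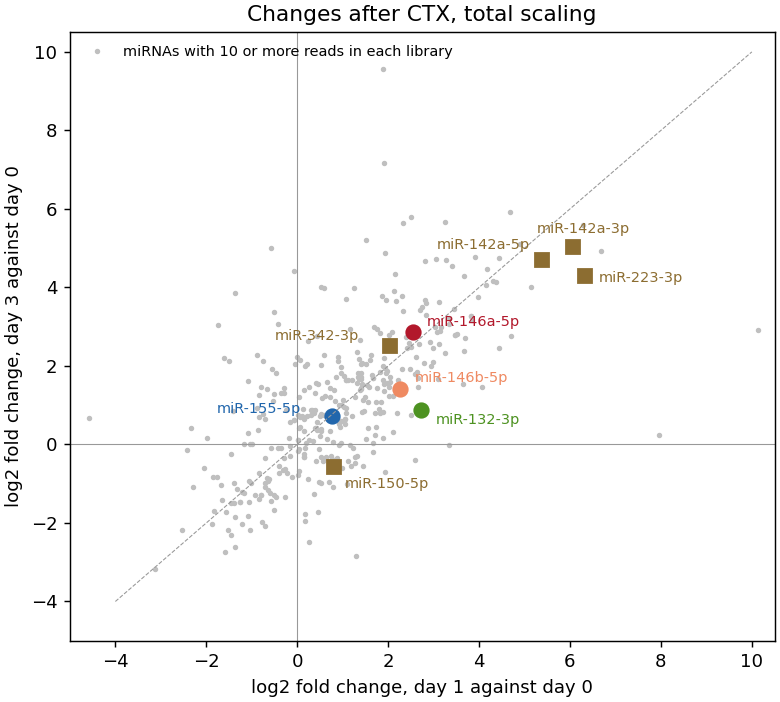
Log2 fold change on day 3 against that on day 1, both versus day 0, for 389 miRNAs with at least 10 reads in each library (grey), the 4 members, and the leukocyte miRNAs (brown squares); the dashed diagonal marks equal change on both days. miR-146a-5p lies above the diagonal (2.54, 2.87), miR-146b-5p (2.26, 1.40) and miR-132-3p (2.73, 0.88, from 8 reads on day 0 and therefore not among the grey points) lie below it, and miR-155-5p lies near it (0.77, 0.72), although its direction and that of miR-132-3p on day 3 turn under other scalings.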

How the data were processed

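Small RNA of 18 to 30 nt was sequenced on the BGISEQ platform from TA muscle, 1 library of 4 pooled samples at each of days 0, 1 and 3 after CTX. The deposited tables give the authors' read count per mature miRNA and a second expression value, used here as a score because its unit is not stated by the authors (97.6%, 92.7% and 86.9% of the reads for miR-146a-5p, but 8.09%, 28.2% and 17.6% for the abundant miR-1a-3p). The submitters' processing notes name GRCm38.p6, HISAT and Bowtie2, with no roles or versions, and how reads matching several miRNAs were assigned is not given in the sources used here. Counts were scaled to CPM of the library total (8507580, 6421056 and 9795076). The read floor was 3 reads and all intervals are 95%. Libraries were compared by 2-sided Fisher's exact tests with Benjamini-Hochberg adjustment, with the fold of 2 and adjusted p of 0.001 that the study used. Fold intervals are exact conditional (Clopper-Pearson) intervals, and intervals of ratios between miRNAs are Wald intervals on reads. Fold changes carry no pseudocount. The test and its calls were checked on simulated counts.

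The members and lists were chosen with earlier results of these data known. miRNAs were named by a rule that took the members, their opposite arms, the miR-212 arms, the list linked to Toll-like receptors, the 3 nearest patterns of each member (at least 100 reads in 1 library and 10 in each, or 1000 in the stricter version) and the leading cell type markers. The alternatives were TMM and DESeq2 median-of-ratios factors, totals without the 10 most abundant miRNAs, expression values, a pseudocount of 1 CPM, at least 10 reads in both libraries, a fold of 4, a looser adjusted p (0.05), the exact test of edgeR at an assumed coefficient of variation of 0.2 or 0.4 between pooled libraries, and subsampling to 6421056 reads. Calls with TMM, median-of-ratios and the reduced totals came from 2-sided exact binomial tests on reads, with the same adjustment. Expression values were compared without scaling to their totals (2583553, 3017586 and 3688064 on days 0, 1 and 3). Their calls kept the adjusted p of the read counts. Positions were looked up in RefSeq sequence tables and GENCODE M21, where 10 of 10 named sequences and 953 of 1138 listed miRNAs were matched. The software was R 4.3.3 with DESeq2 1.42.0 and edgeR 4.0.16, and Python 3.11.15 with scipy 1.17.1, pandas 2.3.3, numpy 2.4.6 and matplotlib 3.10.9.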

Additional observations from a re-analysis of the deposited data

How the results depend on the processing

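Of 130 values of the members' 12 fold changes under 11 alternatives, 105 kept both direction and side of the threshold, 16 lost the call and 9 turned direction. miR-155-5p turned to -0.17 (TMM), -0.27 (median-of-ratios) and -0.16 (without the 10 most abundant miRNAs) on day 1, to -0.21 (TMM) and -0.40 (median-of-ratios) on day 3, and between day 1 and day 3 to 0.05 without the 10 most abundant miRNAs and 0.55 with expression values. The expression values were not scaled to their totals, which moved that step by a median of 0.61 over the miRNAs. miR-132-3p on day 3 turned to -0.04 (TMM) and -0.24 (median-of-ratios). With the same 3 scalings miR-132-3p on day 1 stayed above the fold threshold at 1.78, 1.69 and 1.80 but missed the adjusted p (1.7e-03, 2.8e-03 and 1.7e-03, exact binomial test), and miR-146b-5p on day 3 missed the fold at 0.47, 0.28 and 0.91. These shifts follow from the scaling factors themselves. Unlike miR-146a-5p (2.87), miR-146b-5p on day 3 (1.40) and the fall of miR-132-3p from day 1 to day 3 (-1.84) also missed a fold of 4, and both missed the threshold at a coefficient of variation of 0.2 (adjusted p = 3.8e-03 and 1.8e-02, edgeR exact test). At 0.4 no member was called (edgeR exact test): on day 1 miR-146a-5p (2.54), miR-146b-5p (2.26) and miR-132-3p (2.73) had adjusted p-values of 3.7e-02, 7.2e-02 and 7.9e-02, on day 3 miR-146a-5p and miR-146b-5p had 1.3e-02 and 3.3e-01, and miR-132-3p from day 1 to day 3 had 5.1e-01. The number of members called upregulated was then 0 on day 1 and 0 on day 3. On day 3 it was 1 with TMM, 1 with median-of-ratios, 1 without the 10 most abundant miRNAs, 1 at a fold of 4 and 1 at a coefficient of variation of 0.2, and the number called lower from day 1 to day 3 was 0 at a fold of 4 and at either coefficient.

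Over all miRNAs, 28 rose and 1 fell on day 1 at a coefficient of 0.4, and 162 and 12 at 0.2, against 250 and 43 in the main comparison. On day 3 these counts were 54 and 0, and 201 and 21, against 276 and 46, and from day 1 to day 3 they were 9 and 3, and 60 and 26, against 106 and 79. TMM gave 129 and 107 on day 1 and 165 and 109 on day 3, median-of-ratios 118 and 121 and 148 and 124, totals without the 10 most abundant miRNAs 130 and 107 and 217 and 79, and a fold of 4 gave 168 and 9, 194 and 14, and, from day 1 to day 3, 63 and 29. Expression values gave 140 and 47 from day 1 to day 3. With at least 10 reads in both libraries, miR-132-3p had no value against day 0, where it had 8 reads.

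With 1 library of pooled samples a day, the spread between animals is unknown and the intervals hold counting error only. miR-132-3p is limited by depth. For miR-146a-5p and miR-146b-5p, the number of reads that match both is unknown, and the effect of their assignment was not tested.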
